A study of Mus musculus with 96 samples.

Results

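Gonadal fat and liver of the same 48 mice were compared as whole tissues. All 96 arrays of the series belonged to the comparison, 48 of each tissue, and every mouse number in the labels occurred once in each tissue. The animals were F2 offspring of an M16i x MB2 intercross, 15 weeks old, 24 females and 24 males, with 12 mice in each of 4 numbered haplotype classes. No treatment is given, and both tissues of an animal share its age, sex and class. The labels do not name the parental segments behind a class number. Total RNA was labelled with biotin and hybridised to Illumina bead arrays, on which each probe gives 1 signal. Liver arrays were scanned on days 1, 2, 5 and 6 and fat arrays on days 3, 4, 7 and 8, so scanning day and tissue cannot be told apart.

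White fat stores triglyceride in adipocytes, releases fatty acids and glycerol on demand, and secretes hormones such as leptin and adiponectin. Gonadal fat lies along the epididymis in males and near the ovary and uterus in females. Liver is built mainly of hepatocytes, which secrete most plasma proteins and lipoproteins, make urea, bile acids and glucose, and clear drugs. Both tissues are bulk samples with vessels, immune cells and connective tissue, so fewer cells of a type and less RNA per cell cannot be told apart.

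Signals were quantile-normalised over the 96 arrays and are given on the log2 scale, where a difference of 1 is 2-fold. Testing was limited to the 11718 of 46116 probes with signal above background (detection p below 0.01) on 12 or more arrays, and the brightest of these stood for each of 7740 named genes. A gene was called when limma's treat test found it more than 2-fold different in the paired fit at an adjusted p under 0.05. Fat was higher for 706 probes (6.02%) or 556 genes (7.18%), and liver for 812 probes (6.93%) or 589 genes (7.61%). The arrays of the tissues did not overlap at 2066 probes (17.6%), among them 607 of the fat calls and 670 of the liver calls. Against no difference at all, limma's moderated test called 5658 and 4525 probes, so with 48 pairs even small differences pass. The p-values measure the spread between these mice, and the number of mice limits the precision. Arrays of 1 tissue correlated with a median r of 0.964 in fat and 0.962 in liver. A fat and a liver array correlated with a median r of 0.614 whether they came from the same mouse or from different mice. Between 6582 and 10002 probes were detected on a fat array and between 5519 and 9060 on a liver array. The first principal component held 82.4% of the variance and separated all fat from all liver arrays.

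**Figure D1:**
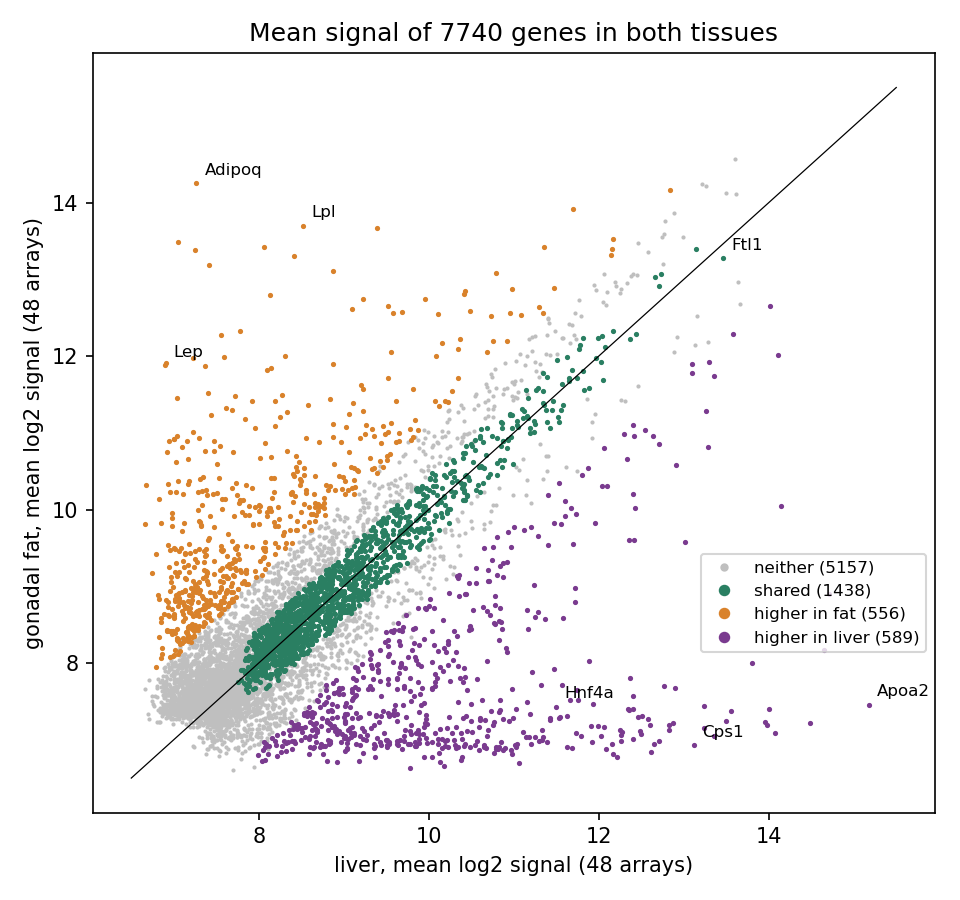
Mean log2 signal of 7740 genes in liver (x axis) and gonadal fat (y axis), 48 arrays each, with the line of equality. The 556 genes called higher in fat and the 589 called higher in liver leave the diagonal, where the 1438 shared genes lie.

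Of the 12 genes with the largest excess in fat, Adipoq, Plin4, Lpl and Cidec are on the list of adipocyte identity. Adipoq, which encodes the hormone adiponectin, read 13.66 on the lowest fat array, 14.25 at the median and 15.03 on the highest, against 6.97, 7.26 and 7.55 in liver. The difference was 6.99 (SE 0.04, n = 48 mice, adjusted p = 9.396e-66) and the groups lay far apart. Aoc3, an amine oxidase of the adipocyte surface, ran from 12.56 to 14.21 in fat and was not detected on any liver array, which makes it at least 60.8-fold higher in fat (adjusted p = 1.916e-61). Every one of the 48 mice had more Adipoq and Aoc3 signal in fat.

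Lep, the gene of the satiety hormone leptin, was never detected in liver and was at least 19.9-fold higher in fat (difference 4.98, SE 0.13, n = 48, adjusted p = 6.817e-34). Its fat values spread widely, from 8.98 through a median of 12.04 to 13.40, yet the lowest lay above the highest liver value of 7.16. Lpl, the lipase that frees fatty acids from lipoproteins at the capillary wall, lay between 12.67 and 14.29 on fat arrays. In liver it lay between 7.69 and 10.06, and all 48 arrays detected it. The remaining genes of the 12 largest were Plin4 (6.12), Cav1 (5.76), Lgals1 (5.37), Cidec (5.00), Ifi27l2a (4.89), Sncg (4.75), Tmem45b (4.72) and S100a6 (4.66), each given as fat minus liver. Plin4 and Cidec coat lipid droplets, Cav1 builds the caveolae of the cell surface, and Lgals1 encodes the lectin galectin-1. No fat array of these 12 genes read as low as any liver array.

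In liver the largest genes encoded plasma proteins and enzymes of nitrogen metabolism. Apoa2, an apolipoprotein of high-density lipoprotein, read 14.80 to 15.36 on liver arrays with a median of 15.03, and 7.04 to 10.69 on fat arrays with a median of 7.28. Its difference of -7.72 (SE 0.10, n = 48, adjusted p = 8.04e-51) was the largest of all named genes. Quantile normalisation gives the brightest probe of every array the same value, so the narrow liver range of Apoa2 is in part set by the method. Apoa1, the main protein of the same particles, differed by -7.26, and Apoc3, an inhibitor of lipoprotein clearance, by -6.72.

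Fga, the fibrinogen alpha chain, ran from 13.56 to 14.44 in liver and from 7.09 to 9.02 in fat (difference -6.60). Cps1, the enzyme that starts the urea cycle, ran from 12.63 to 13.56 in liver and from 6.75 to 7.66 in fat (difference -6.19). Mat1a, the methionine adenosyltransferase of hepatocytes, differed by -6.09. Ambp (-6.98), Hpx (-6.79), Kng1 (-6.48), Ttr (-6.31), Itih4 (-6.26) and Ahsg (-6.18) are all secreted into plasma, Hpx as the carrier of free haem and Ttr as a carrier of thyroid hormone. All 12 were higher in liver in 48 of 48 mice.

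**Figure D2:**
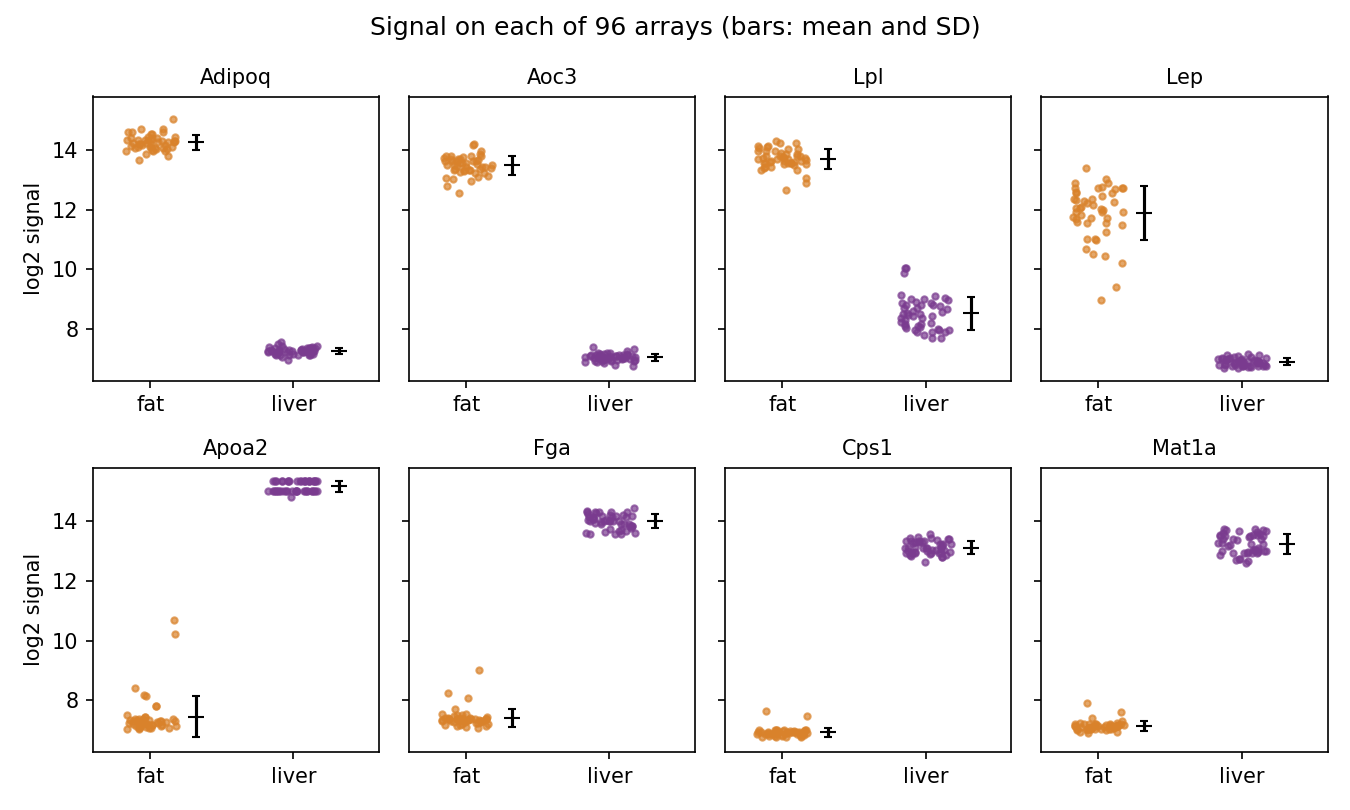
Log2 signal of 8 of the 24 genes on each array (y axis), fat in orange and liver in purple, with the mean and SD of 48 arrays beside the points. No fat and liver arrays overlap for these genes, and 2 fat arrays carry Apoa2 above 10.

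Liver transcripts stood out on a few fat arrays. The mean signal of the 12 liver genes was 7.09 to 8.54 over the fat arrays with a median of 7.23, and 3 of 48 fat arrays detected 6 or more of them. Without the mouse of the highest fat array, 706 probes were called for fat and 808 for liver, against 706 and 812. The 12 fat genes on liver arrays stayed between 7.40 and 7.83, and 9 of 48 liver arrays detected 6 or more of them.

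Raw signals hold background light, which compresses the differences of dim probes. With the background corrected by neqc the difference of Adipoq was 8.21 in place of 6.99 and that of Apoa2 was -8.91 in place of -7.72. These sizes rest on the treatment of background, since 1 liver array detected Adipoq and 10 fat arrays detected Apoa2. Some defining genes had probes near background. The tested probe of Alb, the albumin gene, read 7.42 ± 0.23 in liver (SD, n = 48), with 18 arrays above background, and that of Fabp4, the fatty acid carrier of adipocytes, 7.60 ± 0.21 in fat (SD, n = 48). Neither was called, while Adipoq, Lep and Plin1 were called for fat and Apoa2, Ttr and Cps1 for liver. Of 43 named genes with a second tested probe, that probe gave the same call for 28. Of the others, 13 had the same direction and were not called, and 2, Hoxc8 and Hoxc6, had the opposite sign. Towards liver the 13 were Kng1 (-0.82), Slc10a1 (-0.43), Fdps (-0.74), Sqle (-1.04), Lpin2 (-0.67) and Clec4g (-0.08). Towards fat they were Pparg (1.13), Acta2 (0.76), Anxa2 (0.59), Ehd2 (0.84), Ebf1 (0.93), Angptl4 (0.90) and Coro1a (0.38). Other values given for these genes are of the brightest probe.

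The sequence before the start of these genes also differed in composition. Windows of 300 bases, 250 before and 50 after the first RefSeq start of each gene on GRCm38.p6, were counted for CpG, the pair of letters that is dense in CpG-island promoters, and for 14 short motifs on both strands. Of the motifs, 4 are described, picked after all shares were seen, and no test was run. The 160 bases before the start are printed 5′ to 3′ on the gene's strand for 3 fat genes, 2 liver genes and 1 shared gene, with matches in capitals. They were picked after the results were seen, to show a window without CpG and a match to each motif.

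Adipoq: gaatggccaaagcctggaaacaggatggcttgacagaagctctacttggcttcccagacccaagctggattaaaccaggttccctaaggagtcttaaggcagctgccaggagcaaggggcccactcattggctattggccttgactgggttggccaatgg

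Lep: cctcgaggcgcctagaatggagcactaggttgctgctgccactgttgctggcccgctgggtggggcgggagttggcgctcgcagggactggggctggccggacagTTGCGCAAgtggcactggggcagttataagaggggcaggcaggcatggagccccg

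Plin1: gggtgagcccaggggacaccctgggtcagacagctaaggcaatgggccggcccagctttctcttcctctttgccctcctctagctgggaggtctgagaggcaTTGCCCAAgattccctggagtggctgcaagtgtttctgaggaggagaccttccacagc

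Fga: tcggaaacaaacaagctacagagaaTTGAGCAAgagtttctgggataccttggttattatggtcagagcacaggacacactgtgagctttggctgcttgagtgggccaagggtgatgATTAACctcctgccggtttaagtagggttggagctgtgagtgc

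Cyp8b1: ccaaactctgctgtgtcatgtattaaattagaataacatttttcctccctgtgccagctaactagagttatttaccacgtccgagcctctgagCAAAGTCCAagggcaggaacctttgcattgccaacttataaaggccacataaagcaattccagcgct

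Rps18: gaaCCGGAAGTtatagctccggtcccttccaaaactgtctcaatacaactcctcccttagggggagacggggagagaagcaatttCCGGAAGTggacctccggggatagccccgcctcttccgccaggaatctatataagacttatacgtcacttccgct

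The printed stretch of Adipoq lies at chr16:23146376-23146535 on the plus strand, and its 300 bases hold 0 CpG. Lep (chr6:29060061-29060220, plus) holds 19 CpG and TTGCNNAA, a core of the C/EBP motif, 55 bases before the start. Plin1, a coat protein of lipid droplets (chr7:79732777-79732936, minus), has the same motif 58 bases before its start. Fga (chr3:83025993-83026152, plus) has it on the reverse strand, and GTTAAT, a core of the HNF1 motif, 43 bases before the start, also on the reverse strand. Cyp8b1, a bile acid enzyme (chr9:121916306-121916465, minus), has CAAAGTCCA, an HNF4 motif, at 67 bases. Rps18, a ribosomal protein gene (chr17:33955666-33955825, minus), holds 24 CpG and CCGGAAGT, an ETS motif, at 75 bases and again near the left end of the printed stretch.

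Liver genes had fewer CpG than tested genes, as had the largest fat genes, and shared genes had more. The median count was 4 in the 41 windows found for the 50 largest liver genes and 7 in the 484 windows of all liver calls. It was 10 in the 39 windows found for the 50 largest fat genes and 18 in the 416 windows of fat calls. Shared genes had 22 in 1232 windows, beside 20 over 6330 tested genes and 7 over 27025 windows. At least 10 CpG stood in 7.32% of windows of the 50 largest liver genes and 51.3% of those of the 50 largest fat genes. The share was 44.0% of liver calls, 70.7% of fat calls and 92.5% of shared genes, beside 79.5% of tested genes and 43.9% of all windows. GTTAAT stood in 11.6% of liver windows, 2.16% of fat windows and 3.65% of shared windows, against 4.49% of tested genes and 7.2% of all windows. CAAAGTCCA stood in 2.48%, 0.24% and 0.0812% against 0.585% and 0.477%, and TTGCNNAA in 16.3%, 10.6% and 8.04% against 9.3% and 10.8%. CCGGAAGT ran the other way, at 2.07% and 3.12% of liver and fat windows and 14.1% of shared windows, against 8.44% of tested genes and 4.0% of all windows. These letters are matches and not sites of binding.

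Gene groups followed the tissues. Over all tested genes 7.18% were called for fat and 7.61% for liver, and the counts of each list stand against these shares. Of 26 tested genes of adipocyte identity, 17 were higher in fat and 0 in liver, with a median difference of 1.83 beside 0.06 over all 7740 genes. Of 17 genes of lipolysis and the lipid droplet, 11 were higher in fat. Pnpla2, the lipase that opens triglyceride breakdown, differed by 4.28 and Prkar2b, a regulatory subunit of protein kinase A, by 4.51, although the lowest fat array of Prkar2b read 7.42. Caveolae and insulin-stimulated uptake gave 7 of 13, led by Cav1, Lpl, Ehd2 (3.92) and Cavin2 (3.69). Never detected in liver were 12 of the 26, 7 of the 17 and 5 of the 13 genes of these lists. Such genes passed the filter through fat arrays alone, which set their direction.

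Connective tissue and contractile genes were also higher in fat. Of 24 matrix genes, 17 were called for fat and 2 for liver, with a median of 1.91. Of the 24, 5 were never detected in liver and passed the filter through fat arrays alone. Col6a1 was 11.52 ± 0.48 in fat and 7.40 ± 0.16 in liver (SD, n = 48 each), and the basement membrane collagens Col4a2 and Col4a1 differed by 3.52 and 3.34. Of 19 genes of actin and contraction, 12 were called for fat and 0 for liver, with Acta2, the actin of smooth muscle, at 4.39 and Anxa2 at 4.23.

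Lipid synthesis was divided between the tissues, with 5 of 20 genes higher in fat and 3 in liver. Scd2, a fatty acid desaturase, differed by 3.49, Dgat2, which adds the last fatty acid to triglyceride, by 1.79, and Acaca, which makes malonyl-CoA, by 1.76. The elongase Elovl5 (-1.73), the phosphatidate phosphatase Lpin2 (-1.70) and the carbohydrate-response factor Mlxipl (-1.16) were higher in liver. Cholesterol synthesis gave 0 of 17 for fat and 10 for liver, including Fdps (-2.99), Cyp51 (-2.48), Hsd17b7 (-2.28) and Sqle (-2.25). In each of these lists 1 gene was never detected in fat and passed the filter through liver arrays alone.

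Plasma carriers and apolipoproteins gave the lowest medians. Of 23 plasma carriers and hormones, 21 were higher in liver (median -4.80), as were 14 of 15 apolipoproteins (median -4.10), of which Apod (0.94) was the exception. Coagulation gave 15 of 22 for liver, with prothrombin (F2, -5.44), Serpinf2 (-5.27) and protein C (Proc, -4.65) after Fga. The 3 clotting genes called for fat were Thbd (2.73), Vwf (1.77) and Plau (1.44), and the first pair are made by endothelium. Never detected in fat were 7 of the 23 carriers, 6 of the 15 apolipoproteins and 11 of the 22 coagulation genes. These passed the filter through liver arrays alone, which set their direction. Conversely, 1 apolipoprotein and 2 coagulation genes were never detected in liver and passed through fat arrays alone.

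Of 24 complement genes, 13 were higher in liver and 0 in fat, among the former the terminal components C8g (-5.20) and C9 (-3.89), the inhibitor Cfi (-4.83) and the lectin Mbl2 (-3.85). The chains of C1q, which macrophages make, were not called and read C1qa 0.80, C1qb 0.77 and C1qc 1.01. Of the 24 complement genes, 6 were never detected in fat and passed the filter through liver arrays alone, which set their direction.

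Liver enzymes of nitrogen and bile acids were called nearly throughout. Of 6 urea cycle genes, 5 were higher in liver, with Ass1 at -5.06, Arg1 at -4.72, Asl at -2.92 and Slc25a15 at -2.86, while Slc25a13 at -1.10 did not pass (adjusted p = 0.56). Amino acid catabolism gave 20 of 23, with Hpd (-4.74), Haao (-4.11) and Uroc1 (-3.92) after Mat1a. All 14 tested genes of bile acid synthesis and transport were higher in liver, led by the uptake carrier Slc10a1 (-4.94) and Cyp8b1 (-4.73). Of the 14, 8 were never detected in fat and passed the filter through liver arrays alone, which set their direction. Drug metabolism gave 18 of 24, with Cyp2f2 at -5.17 and Cyp3a11 at -4.95, whose probes can bind close paralogs. The same limit holds for 2 urea cycle, 10 amino acid catabolism and 8 drug metabolism genes, which were also never detected in fat.

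The breakdown of branched-chain amino acids did not follow the rest of amino acid catabolism. Of its 17 tested genes 0 were called in either direction, not far from the shares of 7.18% for fat and 7.61% for liver over all genes. Among the 9 detected on all arrays 7 were shared. The median of the 17 was 0.04 and turned to -0.17 when arrays were centred on their medians. Its values ran from -0.40 (Ppm1k, the phosphatase that activates the pathway's dehydrogenase) to 0.87 (Bcat2, the mitochondrial transaminase). Fatty acid oxidation and ketone synthesis gave 5 of 17 for liver, and glucose output gave 5 of 12, with G6pc at -3.71 and Fbp1 at -3.64. In the oxidation list 3 genes and in the glucose list 2 were never detected in fat and passed the filter through liver arrays alone.

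**Figure D3:**
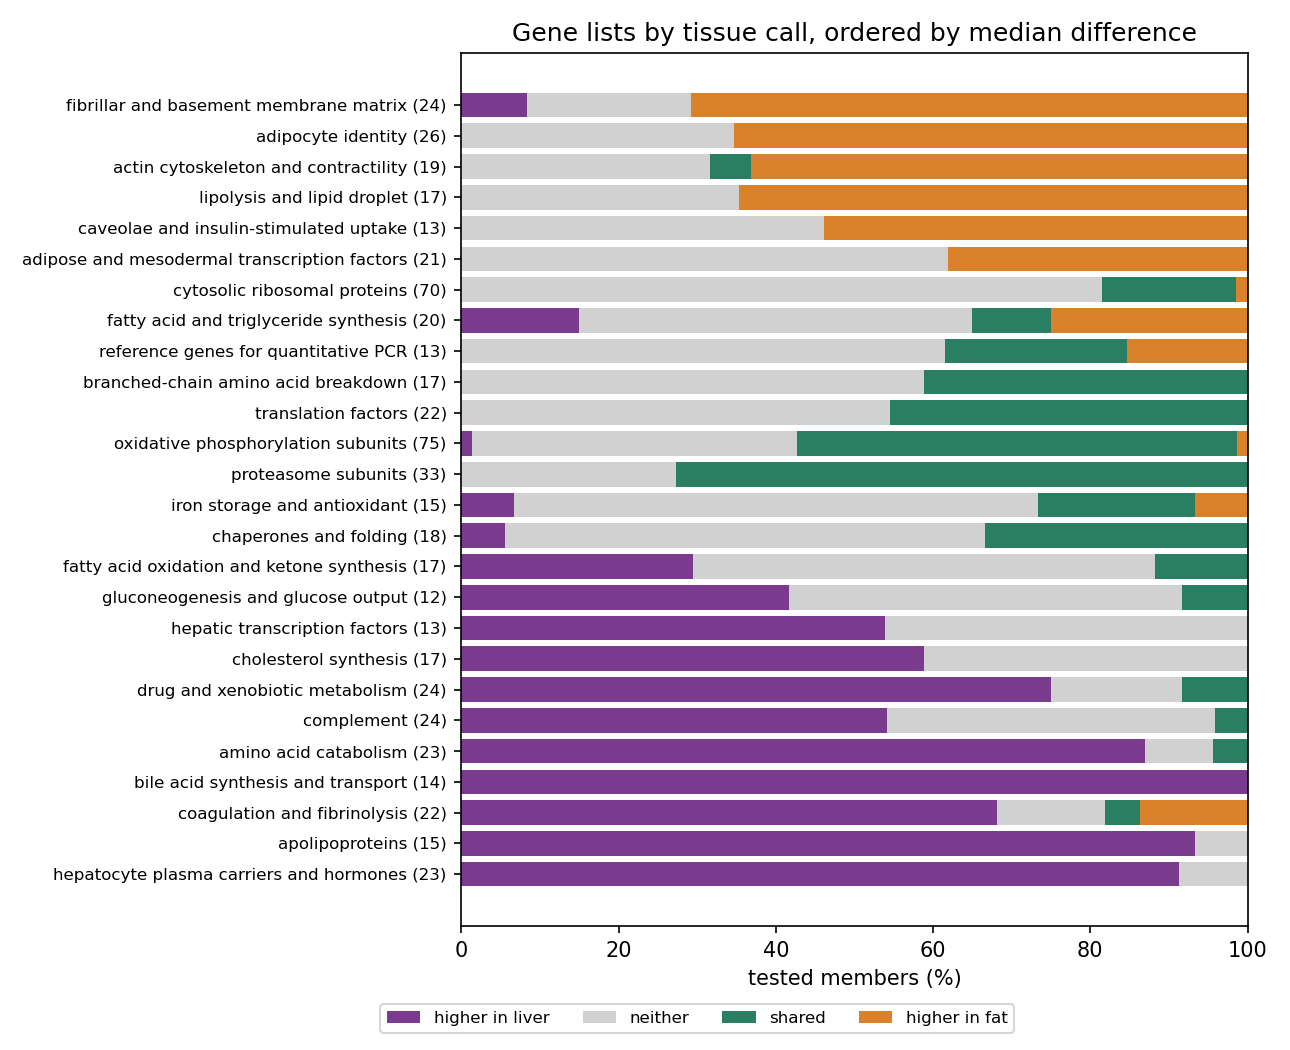
Share of tested members (x axis, percent) called higher in liver, neither, shared or higher in fat, for the lists of at least 10 tested genes, ordered by median difference, with the number tested in parentheses. Bile acid genes were called for liver in 14 of 14 cases and proteasome genes were shared in 24 of 33.

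Transcription factors showed the same division at lower signal. Hnf4a, a nuclear receptor that drives hepatocyte genes, read 10.99 to 12.05 in liver and 7.05 to 9.46 in fat (difference -4.07, SE 0.08, n = 48, adjusted p = 2.372e-38). Foxa3 (-3.40), the bile acid receptor Nr1h4 (-3.32) and Creb3l3 (-2.99) followed, and 7 of 13 hepatic factors were called for liver. Of the 13, 9 were never detected in fat. Of 21 adipose and mesodermal factors, 8 were called for fat, and the brightest probes of 16 were never detected in liver. Factors detected in 1 tissue only passed the filter through that tissue, which set their direction. Pparg, the nuclear receptor of adipocyte formation, read 8.47 to 10.75 in fat and 6.92 to 7.67 in liver (difference 2.55, SE 0.07, n = 48, adjusted p = 2.661e-28). Hoxc8 (3.40) and Hoxc6 (2.98), genes of body position, and Ebf1 (1.61) followed. Second, dimmer probes of Hoxc8 and Hoxc6 read -0.17 and -0.08, were not called, and were detected on 45 and 9 liver arrays.

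Many enzymes and carriers exist in forms that differ between the tissues, and 22 such gene pairs were examined. Both members were tested in 9 pairs, and the signs were opposed in 7 of them. The 2-fold test called both members in opposite directions for 2 pairs. Of the glycerol channels, Aqp7 ran from 8.02 to 9.59 in fat and from 6.93 to 7.32 in liver (difference 1.58), and Aqp9 from 11.08 to 11.95 in liver and from 6.72 to 10.55 in fat (difference -4.17). Of the fatty acid transport proteins, Slc27a1 differed by 2.00 and Slc27a5, which also activates bile acids, by -4.21.

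In further pairs 1 member passed. Pparg was called and Ppara, the receptor that drives fatty acid oxidation, read -0.66, with 21 of 48 liver arrays above background. The pyruvate kinase Pkm differed by 2.45 while the liver form Pklr read -0.62, and Plin1 differed by 1.86 while Plin2 read -0.53. The glucose transporters Slc2a4 (0.88) and Slc2a2 (-0.74) were opposed in sign and neither passed. Ppp1r3c, a glycogen-targeting subunit listed for fat, was called for liver at -1.20, as was its liver partner Ppp1r3b at -1.87. The call of Ppp1r3c was lost without the mouse block (adjusted p = 0.1201) and with scanning day as a random block (adjusted p of 1). Here and below, the scanning-day fit had sex and class as terms in place of the mouse, so it was not paired. Among all pairs, 10 of 18 tested fat forms were called for fat and 6 of 12 tested liver forms for liver. The shares over all tested genes were 7.18% and 7.61%.

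**Figure D4:**
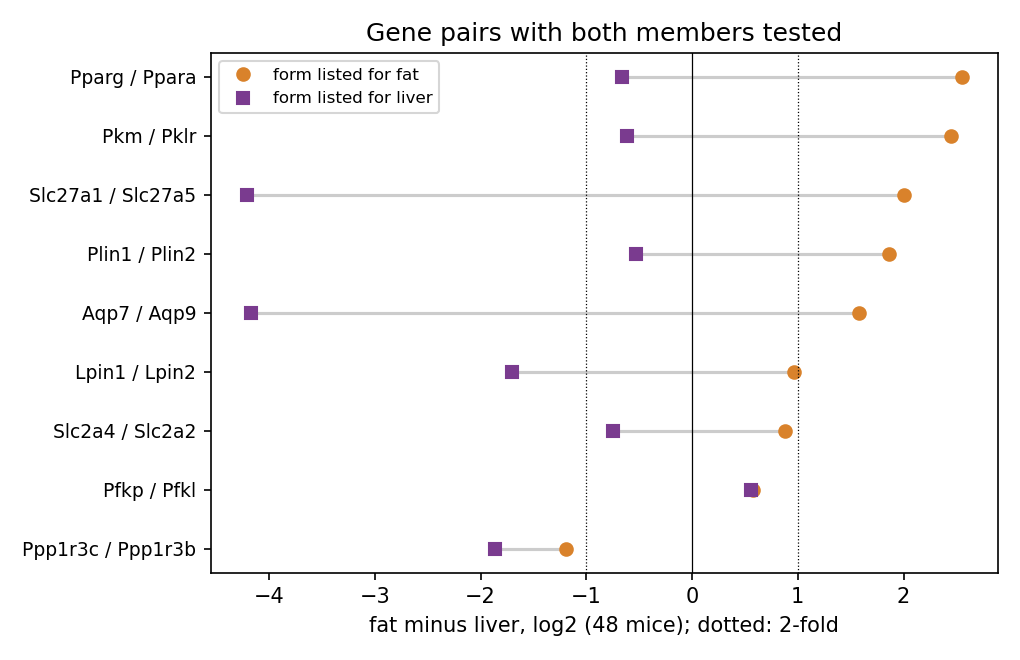
Fat minus liver difference (x axis, log2, 48 mice) of both members in the 9 pairs with both tested, circles for the form listed for fat and squares for that listed for liver. Aqp7 with Aqp9 and Slc27a1 with Slc27a5 lie beyond 2-fold on opposite sides.

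Shared transcripts were defined by an interval and not by a missed threshold. A gene was shared if all 96 arrays detected it and the 95% interval of its difference lay within 0.5 of 0, which held for 1438 of the 2573 genes detected on every array (55.9%). Of the 33 tested proteasome subunits, which form the protease that degrades tagged proteins, 24 were shared, among 25 detected on all arrays. Of 75 subunits of oxidative phosphorylation, 42 were shared among 61 so detected, and 37 of 75 were higher in fat by sign, against 10 of 75 with arrays centred on their medians. The exceptions were Atp5g1 (-1.48), called for liver, and Cox8b (1.85), called for fat, a cytochrome oxidase subunit found in muscle and brown fat.

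Of 70 cytosolic ribosomal proteins, 12 were shared and 1, Rplp2 (1.27, adjusted p = 0.0438), was called for fat. Rplp2 did not pass with median centring (0.96) or with scanning day as a random block (adjusted p = 0.3762). Their median was 0.64, with 64 of 70 higher in fat by sign. This rested on the scaling: with arrays centred on their medians in place of quantile normalisation the median was 0.11 and 50 of 70 were higher, while the median of all genes moved from 0.06 to -0.002.

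Of the 49 bright genes, with a mean of at least 12 in both tissues, 10 were shared. Brightness depends on the probe as well as the transcript, so it does not rank transcripts. Uqcr10, a subunit of complex III, differed by 0.04, and Gapdh, of glycolysis, by -0.15. Ftl1, the light chain of the iron store ferritin, read 12.73 to 13.98 in fat and 12.93 to 14.01 in liver (difference -0.18, 95% interval -0.29 to -0.07). Hspa8, the constitutive chaperone, read 13.04 to 14.09 and 12.54 to 13.78 (difference 0.25). The others were Idh1 (-0.16), Atp5j2 (0.16), Atp5g3 (0.21), Rpl10 (0.23), Tpt1 (0.34) and Rps18 (0.37). A second, dimmer Idh1 probe, detected on 48 arrays of each tissue, read 9.82 in fat and 10.44 in liver. Its difference of -0.62 lay outside the margin of 0.5, so Idh1 was shared on its brightest probe only.

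Genes often used as references were not all alike between the tissues. Of 13 tested, Tuba1b (2.10) and Actb (1.17, adjusted p = 0.01531) were called for fat, and 3 were shared. Actb read 0.50 with median centring and 0.88 in the deposited matrix and passed in neither, nor with scanning day as a random block (adjusted p = 0.3331). A second Actb probe, detected on 48 arrays of each tissue, read 12.63 in fat and 10.80 in liver and was called for fat (1.83). Ppia differed by 0.59, higher in fat in 48 of 48 mice, Hprt by 0.69, B2m by 0.49 and Pgk1 by -0.74. Gapdh differed by 0.10 in females and by -0.39 in males.

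Markers of other cell types moved with tissue, and their part in the results above was not tested. Their counts stand beside 7.18% of all tested genes called for fat and 7.61% for liver. Of 11 fibroblast and preadipocyte markers, 8 were called for fat, and their mean signal was 8.79 to 9.79 on fat arrays against 7.47 to 7.68 on liver arrays. Cd34, Col1a1, Dlk1, Gsn, Mfap5 and Pi16 were not detected on any liver array on their brightest probes. These genes passed the filter through fat arrays alone, which set their direction. Of 10 endothelial markers 5 were called for fat, such as Esam (2.44) and Pecam1 (1.88), with a mean of 8.52 to 9.18 in fat and 7.56 to 7.93 in liver. In liver the Kupffer cell gene Clec4f (-2.19) and the sinusoidal gene Clec4g (-3.74) were called and were not detected in fat on their brightest probes. A second Clec4g probe was detected on 14 fat and 11 liver arrays and read -0.08. Of the 5 Kupffer cell markers 2 were called for liver, and Timd4 read 0.03. Of the 6 sinusoidal markers 2 were called for liver, while Stab1 (0.75) and Lyve1 (0.69) lay towards fat without passing. Macrophage markers gave 2 of 8 for fat, and their means of 8.35 to 9.27 in fat overlapped those of 7.54 to 8.75 in liver.

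Some markers varied between fat samples. Upk3b, of the mesothelium that covers the depot, ran from 7.35 to 11.14 in fat (difference 2.36). Of the 7 mesothelial and epithelial markers it was the 1 called for fat, and Krt8 (-2.64), Krt18 (-2.11) and Cdh1 (-1.18) were called for liver. Acta1, the actin of skeletal muscle, ran from 7.09 through a median of 8.24 to 14.15 in fat, above 10 on 7 arrays, and from 6.76 to 7.08 in liver. Its call was lost with scanning day as a random block (adjusted p = 0.1687). It was the only one of 8 muscle markers tested. Of the ovary and uterus markers only Ltf was tested, reaching 11.00 in fat and 11.49 in liver against medians of 7.26 and 7.27, and no epididymis marker was tested. The red cell gene Hba-a1 was higher in fat (1.33, but 0.62 and not called with median centring), while Alas2 (-0.52) and Slc4a1 (-0.04) were not called.

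The size of the fat minus liver difference was then compared between the sexes. It differed for 2791 of 11718 probes (23.8%) in limma's test on the differences within mice, 1400 more towards fat in females and 1391 in males. The 8 smallest p-values among probes with a gene name belonged to genes near background in fat and present in the liver of mainly 1 sex. Sult2a2, a sulfotransferase, read 12.52 ± 0.24 in female and 7.00 ± 0.10 in male liver (SD, n = 24 each). A1bg, a plasma protein gene, read 13.40 ± 0.65 and 7.41 ± 0.17, Cyp2a4 10.77 ± 0.35 and 6.88 ± 0.14, and Cyp2b9 10.92 ± 0.30 and 7.15 ± 0.38 (SD, n = 24 each). A second Cyp2a4 probe, detected on all 48 liver arrays, read 11.42 ± 0.43 in female and 8.83 ± 0.38 in male liver (SD, n = 24 each). On that probe both sexes had Cyp2a4 signal in liver, with more in females. Slc22a26 and Hao2 were also higher in female liver.

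Males had the opposite genes. Hsd3b5, a steroid dehydrogenase, read 11.69 ± 0.40 in male and 7.02 ± 0.15 in female liver, and Cyp4a12a, a fatty acid hydroxylase, 12.00 ± 0.25 and 7.25 ± 0.13 (SD, n = 24 each). Probes of the Cyp and Sult2a families can bind paralogs. The sex difference was larger in liver for 1382 of the 2791 probes and larger in fat for 1409, but it passed 1 log2 at 89 probes in liver and 25 in fat.

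Of the genes led by fat, Spon2 and Fkbp5 were picked after their values were seen. Spon2, a matrix protein gene, read 10.90 ± 0.74 in female and 8.67 ± 0.45 in male fat and 9.08 ± 0.52 and 9.38 ± 0.30 in liver (SD, n = 24 each). Fkbp5, a glucocorticoid-induced chaperone of steroid receptors, was higher in male fat (8.04 against 7.35) and in female liver (8.04 against 7.62). When the sexes were fitted apart, 684 and 680 probes were called for fat in females and males, 577 of them in both, and 802 and 761 for liver, 677 in both. At 0 probes was the call opposite.

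The tissue difference varied with haplotype class at 19 probes (0.162%) in limma's F-test, 11 of them on chromosome 2. For scale, 377 of the 6226 probes used for the correlations below, detected on at least 24 arrays of each tissue, lie on chromosome 2. The class test ran on 11718 probes, whose share on chromosome 2 is not given here. Gchfr, the feedback regulator of tetrahydrobiopterin synthesis, read 7.04 ± 0.16 in class 1 and 7.68 ± 0.27 in class 4 fat, and 9.89 ± 0.19 and 9.48 ± 0.19 in the livers of those classes (SD, n = 12 each, adjusted p = 1.46e-09). This probe was detected on 16 of 48 fat arrays. A second Gchfr probe read 7.38 ± 0.13 and 8.07 ± 0.34 in fat of those classes (SD, n = 12 each, adjusted p = 1.42e-05). In liver it read 10.13 ± 0.24 and 10.03 ± 0.15, so the lower liver level of class 4 was not clear on it. Cst3, the gene of cystatin C, was 12.90 and 12.86 in fat in classes 1 and 4 and 10.75 and 9.95 in liver (adjusted p = 0.001204). Slpi, a protease inhibitor gene, had its lowest fat mean in class 3 (7.96 ± 0.58) and its highest in class 2 (10.41 ± 1.27). The liver means of these classes were 7.08 ± 0.12 and 7.67 ± 0.41 (SD, n = 12 each, adjusted p = 0.0001041).

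The pairing also allowed the level of a gene in fat to be set against its level in the liver of the same animal. Values were first adjusted for sex, class and scanning day within each tissue, and 6226 probes were correlated over 48 mice with a permutation test. Positive correlations were called at 88 probes (1.41%) and negative ones at 3, while the median r over all probes was 0.04. For 6226 probes, 586 had an unadjusted p under 0.05.

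Tef and Dbp, a pair of PAR bZIP factors whose transcripts cycle over the day in many organs, gave r = 0.83 (rho 0.82) and r = 0.80 (rho 0.78), each with a permutation p of 1e-05, the smallest the permutations can give (adjusted p = 0.001887). Dbp residuals ran from -1.37 to 1.92 in fat and from -2.06 to 2.62 in liver, and 42 of 48 mice had the same sign in both. The clock genes Per3 (r = 0.69) and Arntl (r = 0.68) were also called, and are named after their values were seen. The time of day of sampling is not given in the labels.

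Igtp, an interferon-inducible GTPase, gave r = 0.72 (rho 0.71) and Cd274, the checkpoint ligand PD-L1, r = 0.69 (rho 0.63). Irgm2 (r = 0.69), Gbp3 (r = 0.68) and the immunoproteasome subunit Psmb8 (r = 0.67), picked after their values were seen, were called as well. Without the 2 mice farthest from the median, Tef, Dbp, Igtp and Cd274 gave r = 0.79, 0.75, 0.75 and 0.55. Cd274 gave r = 0.89 in females and 0.46 in males (adjusted p = 0.4329), and Dbp gave 0.89 and 0.66 (adjusted p = 0.0895). Per3, Arntl, Irgm2 and Gbp3 did not pass in the 24 males alone either, and the difference between the sexes was not tested.

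The remaining genes of the highest 10 were Cops8 (r = 0.85), Ttc27 (0.79), Hddc3 (0.78), Ufc1 (0.73), Rps15 (0.72) and Gnaq (0.72). Cops8 gave r = 0.78 without the 2 farthest mice. With residuals after sex and class only, without scanning day, Rps15 gave r = 0.40 and did not pass (adjusted p = 0.1619). Gnaq gave r = 0.66 in females alone (adjusted p = 0.05018). Hddc3 fell into clusters, with a rho of 0.47 (adjusted p = 0.07644 by rank). Ufc1 rested on 3 mice, the lowest in fat and also in liver, without which r was 0.15 (rho 0.18, permutation p = 0.333, 45 mice). For genes with such clusters the pooled r is not a graded relation. The negative calls were Cwf19l1 (r = -0.57), Uck1 (-0.48) and Mettl14 (-0.48), and with the 2 farthest mice left out none of these 3 passed (adjusted p of 0.1161, 0.3826 and 0.1307).

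**Figure D5:**
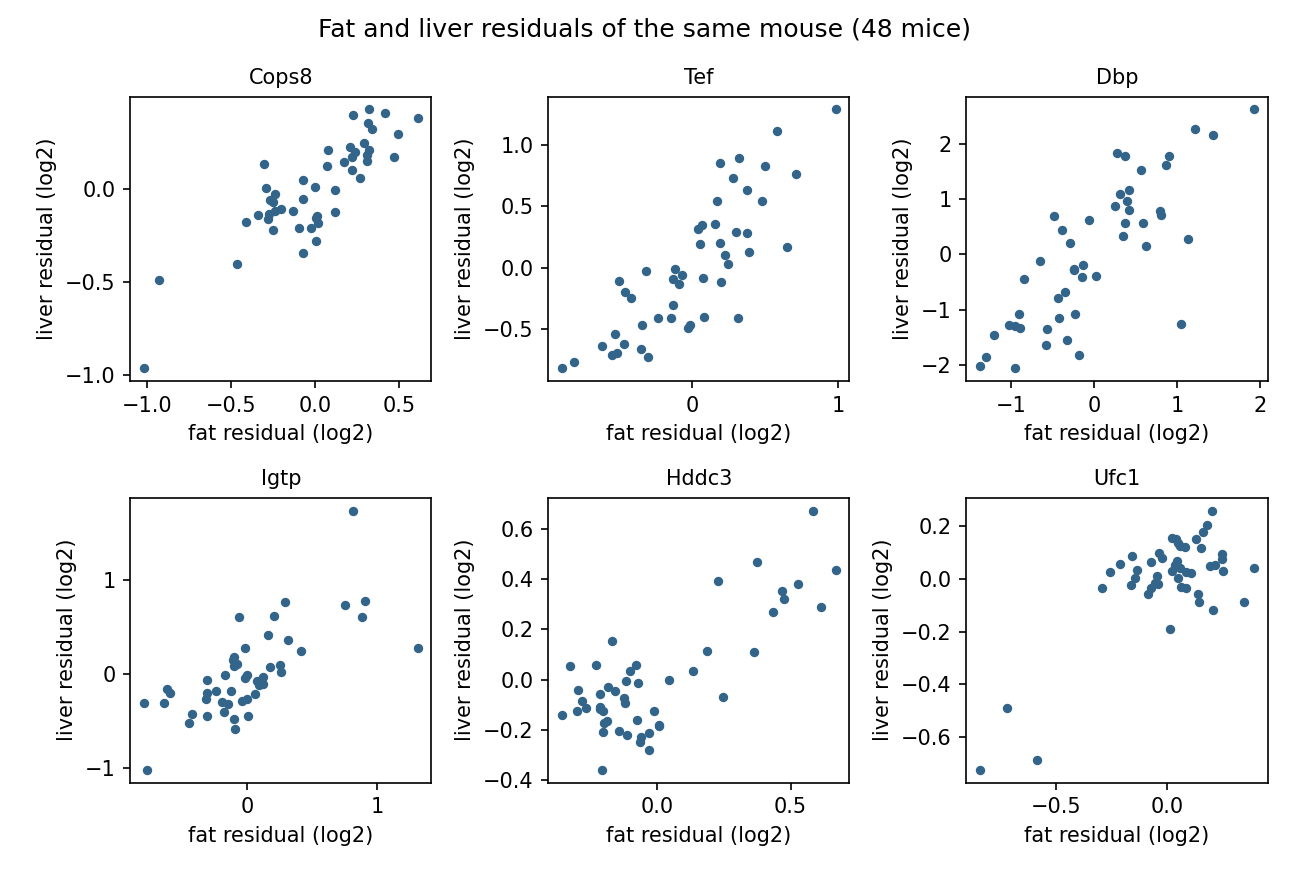
Residual log2 level in fat (x axis) and liver (y axis) of the same mouse for 6 genes, 48 mice each, after sex, class and scanning day. Tef, Dbp and Igtp form a continuous cloud, Hddc3 falls into clusters, and 3 mice set the value of Ufc1.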

How the data were processed

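Total RNA of 48 gonadal fat and 48 liver samples was measured on Illumina bead arrays. The deposited probe intensities are raw signals with no normalization stated in the file headers. The deposited detection columns hold, for each probe, a fraction from 0 to 1 that equals 1 minus the detection p, and it was turned back. The authors' deposited matrix holds log2 values, and lumi is named for it per the submitters' processing notes, with no version. Of 46116 probes, 29534 carry 1 gene symbol, 11 several and 16571 none in the platform annotation, whose names can be old.

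Intensities were quantile-normalised over all 96 arrays and put on the log2 scale with R 4.3.3. Limma 3.58.1 fitted tissue with the mouse as a block, and treat tested for more than 2-fold at a Benjamini-Hochberg adjusted p under 0.05. The pairing comes from the labels: each mouse number names 1 animal, with the same sex and class in both tissues. Interactions with sex and class were fitted to the differences within mice, with scanning days as terms. Correlations used residuals after sex, class and day, with 100000 permutations, two-sided. The procedures were tested on simulated data.

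Named genes were the 12 largest in each direction, up to 4 called genes of each list (all tested members of lists with at most 8), the isozyme pairs, the reference and bright shared genes, the 8 smallest p for sex and class, and the 10 highest and 3 lowest correlations. Thbd, Plau, Apod, Mlxipl, Ppm1k, Bcat2 and the C1q genes were named after their values were seen. The comparison, the 41 lists and the pairs were chosen with earlier results of these data known. Alternatives covered background correction, scaling, filters, the block, scanning day, sex and left-out arrays. Promoters on chromosome 18 were not used here.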

Additional observations from a re-analysis of the deposited data

Results flagged for a closer look

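The fat minus liver difference was tested between the sexes and between the haplotype classes, and the genes below had the smallest p-values. The effect is the difference in females minus that in males, on the log2 scale with 24 mice of each sex. It was -5.5488 for Sult2a2, -5.9606 for A1bg, -3.8147 for Cyp2b9, -3.812 for Cyp2a4, -2.2822 for Hao2 and -2.0809 for Slc22a26, all with more liver signal in females. It was 4.5779 for Hsd3b5 and 4.5541 for Cyp4a12a, with more liver signal in males. For class, the range of the difference over the 4 classes was 1.8603 for Slpi, 1.0599 for Gchfr, 0.9859 for Slc1a2, 0.8024 for Cst3, 0.5751 for Cep152, 0.5171 for Trim44, 0.3667 for Fez2 and 0.351 for Tmem87a. Of these, Fez2 lies on chromosome 17 and the others lie on chromosome 2. The cause of these differences was not tested.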

How the results depend on the processing

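The counts of 706 probes for fat and 812 for liver became 971 and 957 with neqc, 608 and 880 with median centring, and 621 and 704 with the deposited matrix. They were 594 and 739 with scanning day as a random block, a fit with sex and class in place of the mouse block. With no replicate block they were 705 and 816, with 1873 shared probes against 1869. The shared probes fell to 1307 with neqc and 1629 with scanning day as a random block. They were 1860 with median centring and 1848 with the deposited matrix. Against no difference, limma called 5658 and 4525 probes. A margin of 0.25 left 888 shared probes. The 91 correlated probes became 60 without the 2 farthest mice and 18 in males only. Second probes reversed Hoxc8 (-0.1734) and Hoxc6 (-0.0831), both dim, an alternative chosen after seeing the data, as were leaving out 6 mice with the least correlated arrays (715 and 813), the 3 lowest Ufc1 mice and the mouse with the most liver signal in fat. The cause of these changes was not tested. With no replicate block Ppp1r3c and Krt7 lost their calls. With scanning day as a random block 9 named genes did: Acta1, Actb, Cdh1, Hba-a1, Krt7, Mrc1, Ppp1r3c, Rplp2 and Selenbp1. With the deposited matrix 8 did: Acta1, Actb, Cdh1, Cela1, Hba-a1, Krt7, Ppp1r3c and Selenbp1. With median centring Actb, Hba-a1, Krt7 and Rplp2 did. Apart from second probes, Ppp1r3c lost its call under 14 alternatives, Krt7 under 13, Cdh1 under 10, and Actb and Rplp2 under 9 each. Raw signals limit the differences of probes near background.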
